A study of Mus musculus with 12 samples.

Results

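Cells of mouse bone marrow cultured with 50 µM indole-3-propionic acid (IPA) were compared with cells cultured with vehicle, by RNA-seq, in 8 of the 12 libraries of the series, 4 in each group. The comparison covered 14894 of the 54532 genes listed, namely those with a level above 0.5 CPM (read counts scaled to a fixed library size) in 2 or more of the 12 libraries. All cells came from C57BL/6 mice of WT genotype and were grown with GM-CSF and IL-6. The vehicle was 0.1% DMSO, medium was renewed on day 3 per the labels and every 2 days per the methods, and all cultures were harvested on day 5. The labels name no solvent for the IPA cultures, no sort of the cells, and no age or sex of the mice. They also do not say whether the libraries of a group came from separate mice or cultures, so p-values measure only the spread between these libraries. The other 4 libraries, with 10 µM IPA in the same medium, are set beside the genes described where they bear on them.

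IPA is made from tryptophan by gut bacteria. Several indoles are ligands of the aryl hydrocarbon receptor (AHR), which switches on genes of xenobiotic metabolism, whereas the action of IPA on AHR is disputed. GM-CSF and IL-6 drive bone marrow progenitors towards neutrophils, monocytes and macrophages, and such cultures are used to grow immunosuppressive myeloid cells. Cells that run short of amino acids or face other stress slow translation through phosphorylation of eIF2α, and the transcription factor ATF4 then switches on amino acid synthesis, transport and tRNA charging, a programme called the integrated stress response.

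Counted reads ranged from 20451312 to 26925143 per library at 50 µM and from 22417710 to 26442653 with vehicle. Levels are given as CPM, normalized by edgeR's TMM factors over the 12 libraries, and a mean is given ± SD over 4 libraries. A log2 change is the fitted log2 fold change at 50 µM against vehicle, SE is its standard error, and adjusted p is that of edgeR. Along the first principal component of the 12 libraries (27.0% of the variance), the 50 µM libraries lay between 19.1 and 41.7 and the other 8 between -36.5 and -1.0. Vehicle replicate 4 and 50 µM replicate 3 had the lowest slope of counts on exon length in their groups (-0.0383 and -0.0664 log2 units per doubling of length, against 0.0107 to 0.0410 and 0.00275 to 0.00974). Genes of neutrophils and macrophages were abundant in all 8 libraries, with *S100a9* at 8087 ± 1631 CPM with vehicle and *Lgals3* at 1835 ± 214 CPM. In bulk RNA, fewer cells of a type and less RNA per cell cannot be told apart.

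At 50 µM, 2010 genes passed an adjusted p of 0.05 by edgeR's quasi-likelihood test, 1042 higher and 968 lower than with vehicle, which is 7.00% and 6.50% of all genes tested. These are called genes below, and the 2 percentages are the background for every list of genes. The median log2 fold change was 0.58 among genes called higher, -0.42 among genes called lower and 0.01 over all genes tested. More than 2-fold changes were found in 255 of the genes called higher and 111 of those called lower. The 4 values at 50 µM lay outside the range of the 4 vehicle values in 1866 of the called genes, and in 20.0% of all genes tested. The number of called genes was 1248 without vehicle replicate 3 and 1313 without 50 µM replicate 2. With a test against a log2 fold change of at least 1, 31 genes were higher and 5 lower.

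**Figure D1:**
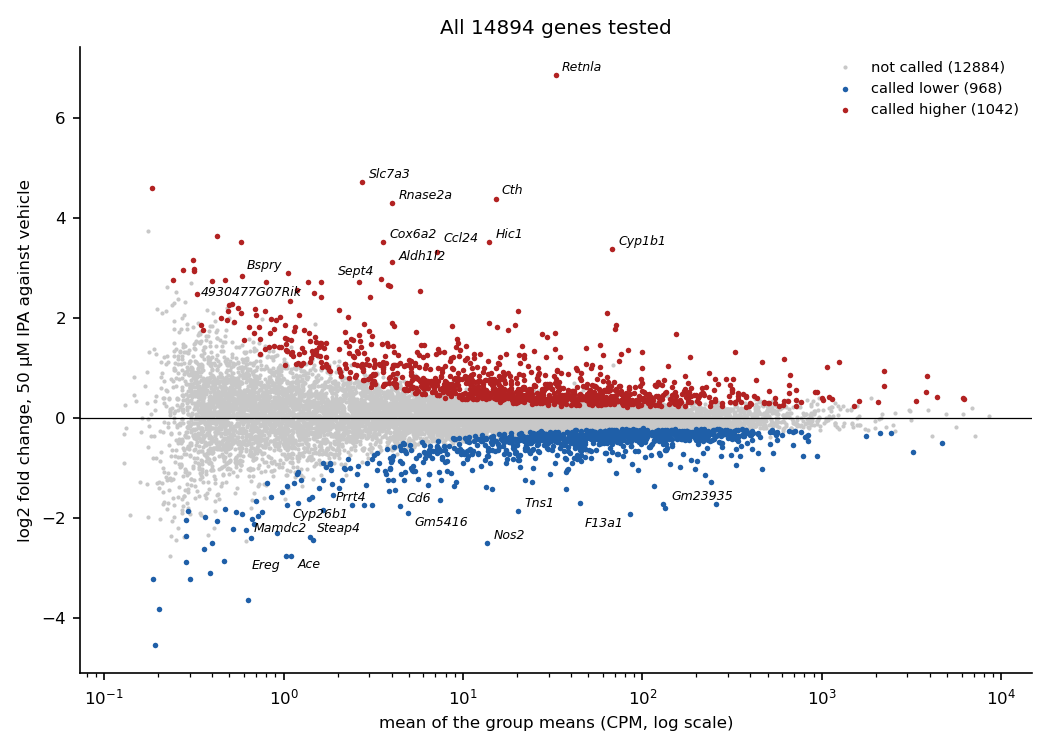
Log2 fold change at 50 µM IPA against vehicle (vertical axis) for each of the 14894 genes tested, by the mean of the 2 group means in CPM (horizontal axis, log scale). Red and blue points are the 1042 genes called higher and the 968 called lower, and the labels are the 12 highest and 12 lowest changes among called genes without overlap between the groups and with a mean of at least 1 CPM, led by *Retnla*.

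The 12 largest rises among called genes without overlap between the groups and with a mean of at least 1 CPM were at least 6.61-fold, and the 12 largest falls at least 3.35-fold. These are fitted values. Tested against a log2 fold change of at least 1, only *Tns1* and *Gm23935* passed among these falls, and only *Bspry* and *4930477G07Rik* failed among the rises. *Retnla* (ENSMUSG00000061100, chromosome 16, 48842551 to 48844461 of GRCm38), which encodes the secreted protein RELMα of alternatively activated macrophages, rose most. Its CPM was 0.492, 0.743, 0.717 and 0.318 in the vehicle libraries and 55.1, 73.7, 71.7 and 60.7 at 50 µM (log2 change 6.85, SE 0.18, adjusted p = 1.18e-10). Separation of the groups was a condition of the choice, and the gap for *Retnla* was wide. At 10 µM the mean of *Retnla* was 4.70 CPM, and the value at 50 µM was higher than that (adjusted p = 2.16e-09).

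Next came *Slc7a3*, a transporter of cationic amino acids (0.113, 0.111, 0.224 and 0.358 CPM with vehicle, 5.03, 5.20, 4.18 and 6.80 at 50 µM, log2 change 4.71, SE 0.34, adjusted p = 2.96e-06). *Cth*, the enzyme that releases cysteine from cystathionine, was at 0.870, 1.37, 1.39 and 1.95 CPM with vehicle and 20.2, 28.5, 36.4 and 30.9 at 50 µM (log2 change 4.38, SE 0.23, adjusted p = 1.90e-07). Both genes were near their vehicle level at 10 µM, with means of 0.218 and 1.37 CPM. *Rnase2a*, of the family of eosinophil-associated ribonucleases, rose from 0.384 to 7.67 CPM (log2 change 4.30, adjusted p = 8.14e-05), and 1 vehicle library held no read of it. *Hic1*, a transcriptional repressor, was at 3.22, 3.42, 1.43 and 0.875 CPM with vehicle and 28.6, 31.6, 20.2 and 22.8 at 50 µM (log2 change 3.52, SE 0.30, adjusted p = 9.19e-06). Its vehicle values fell into a higher and a lower pair, and all 4 were far below the treated ones. *Ccl24*, an eotaxin that attracts eosinophils, rose from 1.55, 1.23, 1.17 and 1.31 CPM to 16.5, 19.2, 10.6 and 5.92 CPM (log2 change 3.31, SE 0.32, adjusted p = 3.17e-05), with a wide spread among the treated libraries and no overlap. The other large rises were those of *Cox6a2* (3.51), a cytochrome c oxidase subunit best known from muscle, *Cyp1b1* (3.38), *Aldh1l2* (3.11), *Bspry* (2.90), *Sept4* (2.77) and *4930477G07Rik* (2.72), with adjusted p between 7.42e-08 and 0.00545. *Cox6a2* lies opposite Itgad, *Aldh1l2* opposite D10Wsu102e and *Sept4* overlaps Gm11492 on the same strand, and since the strand setting of the counting is not given, their counts may include each other's reads.

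Among the falls, *Nos2*, the inducible nitric oxide synthase, was at 6.73, 11.7, 29.8 and 44.5 CPM in the vehicle libraries and 5.77, 1.69, 3.11 and 5.96 at 50 µM (log2 change -2.50, SE 0.52, adjusted p = 0.00705). *F13a1* (ENSMUSG00000039109, chromosome 13, 36867178 to 37050244), the A chain of coagulation factor XIII and a monocyte gene, was at 66.6, 75.1, 185 and 213 CPM with vehicle and 52.1, 21.7, 28.3 and 39.8 at 50 µM (log2 change -1.92, SE 0.36, adjusted p = 0.00357). In both genes vehicle replicates 3 and 4 stood well above replicates 1 and 2, and the treated libraries lay below all of them, as the choice of these genes required. *Tns1*, the focal adhesion protein tensin 1, fell with less spread, from 39.2, 34.2, 30.1 and 24.1 CPM to 12.1, 7.66, 6.12 and 8.99 CPM (log2 change -1.87, SE 0.19, adjusted p = 3.73e-05). *Ereg*, an EGF family ligand (1.80 to 0.272 CPM, -2.77), and *Ace*, angiotensin-converting enzyme (1.93 to 0.274 CPM, -2.76), had the largest fold changes of the 12 falls but low levels. Levels were also low for *Mamdc2* (-2.44), the metalloreductase gene *Steap4* (-2.37), *Cyp26b1* (-1.75), which degrades retinoic acid, and *Prrt4* (-1.75). *Cd6*, a scavenger receptor family member of lymphocytes, fell from 6.90 to 2.04 CPM (log2 change -1.76, adjusted p = 0.000347) and *Gm5416*, a stefin A gene, from 7.85 to 2.09 CPM (log2 change -1.91, adjusted p = 0.000999). *Gm23935*, a gene of 57 bases, fell from 209 to 59.3 CPM (log2 change -1.81, adjusted p = 3.12e-06). *F13a1* lies opposite Gm30489, *Ace* opposite Gm11651 and *Ereg* opposite Gm19610.

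**Figure D2:**
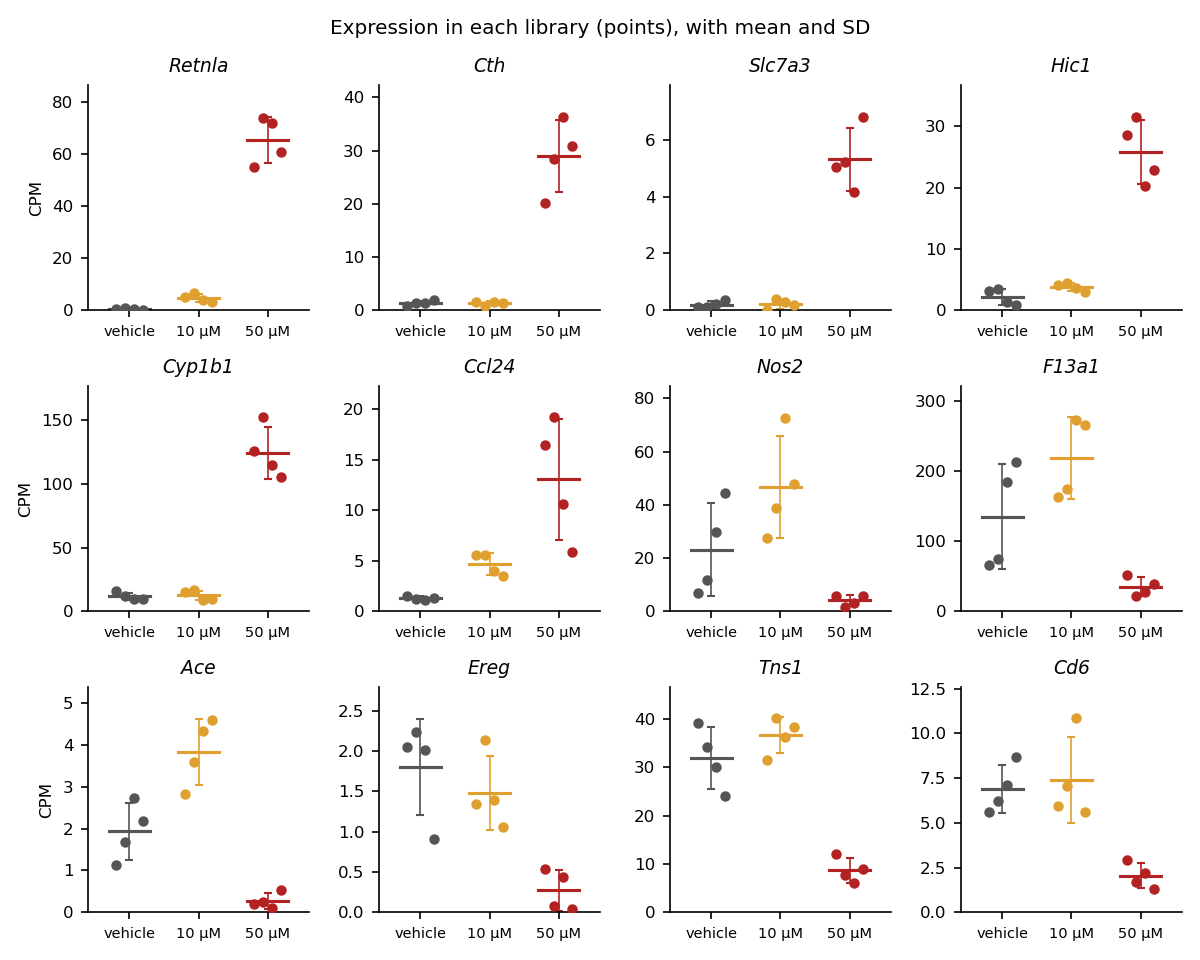
CPM in each library (points) with vehicle, 10 µM IPA and 50 µM IPA for 12 of these 24 genes, with the mean (line) and SD (bar) of each group; each axis starts at 0. *Retnla*, *Cth*, *Slc7a3* and *Cyp1b1* are separated from vehicle at 50 µM by a wide gap, and for *Nos2*, *F13a1* and *Ace* the 10 µM mean is above the vehicle mean while the 50 µM mean is below it.

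Of the 24 genes, 22 also differed between 50 µM and 10 µM (edgeR, adjusted p under 0.05), and 3 differed between 10 µM and vehicle. For several falls the 10 µM mean lay on the other side of the vehicle mean. *Nos2* had means of 23.2, 46.8 and 4.13 CPM with vehicle, 10 µM and 50 µM. The test of 50 µM against 10 µM gave an adjusted p of 3.01e-06, and that of 10 µM against vehicle 0.580. *F13a1* had means of 135, 219 and 35.5 CPM (adjusted p = 1.62e-06 and 0.603 for the same tests). *Ace* had means of 1.93, 3.83 and 0.274 CPM (6.21e-06 and 0.207). None of these 3 differed between 10 µM and vehicle by the test.

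Most genes of the integrated stress response were higher at 50 µM. Of 23 tested members of a list of ATF4 and other genes of this response, 14 rose and 2 fell, against 7.00% and 6.50% of all genes. Their median log2 fold change was 0.50 (all medians below are of the same quantity). *Atf4* itself (ENSMUSG00000042406, chromosome 15, 80255184 to 80257541) was at 277, 290.3, 279 and 281 CPM with vehicle and 356, 379.8, 444 and 409 at 50 µM (log2 change 0.50, SE 0.08, adjusted p = 0.000851), with no overlap and little spread among the vehicle libraries. Its partner in the terminal arm of the response, *Ddit3*, which encodes CHOP and lies opposite *Mars*, rose from 7.55 to 14.9 CPM (log2 change 0.99, adjusted p = 0.00199). *Gdf15*, a stress cytokine, had the largest rise of the list, from 1.89, 2.12, 2.20 and 0.636 CPM to 6.45, 8.35, 11.9 and 12.7 CPM (log2 change 2.53, SE 0.31, adjusted p = 0.000165). *Trib3*, a pseudokinase that restrains ATF4, was at 10.3, 13.1, 14.8 and 19.0 CPM and 27.4, 35.0, 36.4 and 44.1 CPM (log2 change 1.33, SE 0.17, adjusted p = 0.000284). *Chac1*, which degrades glutathione, was at 7.57, 6.98, 8.02 and 9.18 CPM and 11.3, 14.6, 18.2 and 20.2 CPM (log2 change 1.02, SE 0.17, adjusted p = 0.00143). In both genes all 4 treated libraries were above all vehicle libraries. *Gpt2*, *Stc2*, *Nupr1*, *Ddit4*, *Atf5*, *Ppp1r15a*, *Sesn2*, *Vldlr* and *Atf3* also rose, by 1.27, 0.89, 0.81, 0.65, 0.64, 0.54, 0.50, 0.68 and 0.40 on the log2 scale, although *Vldlr* lost its call in 6 and *Atf3* in 2 of the 8 leave-one-out fits. The 2 members that fell were eIF2α kinases, *Eif2ak3*, which encodes the endoplasmic reticulum kinase PERK (log2 change -0.34, adjusted p = 0.0109), and *Eif2ak1* (log2 change -0.28, adjusted p = 0.0280). At 10 µM the median of the same list against vehicle was 0.06.

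Of 12 enzymes of amino acid synthesis and breakdown, 5 rose and 2 fell (median -0.07). *Asns*, asparagine synthetase, rose from 63.3, 60.8, 62.0 and 80.6 CPM to 113, 128, 142 and 149 CPM (log2 change 1.00, SE 0.11, adjusted p = 7.59e-05), without overlap. Besides *Cth*, the proline enzymes *Pycr1* (5.33 to 11.6 CPM, log2 change 1.13, adjusted p = 0.000879) and *Aldh18a1* (log2 change 0.38, adjusted p = 0.0109) and the aspartate aminotransferase *Got1* (log2 change 0.50, adjusted p = 0.000492) rose. Proline dehydrogenase, *Prodh* (log2 change -0.42, adjusted p = 0.0493), was among those that fell, and the number that fell was between 0 (without 50 µM replicate 4 or vehicle replicate 1) and 2 (without 50 µM replicate 1 or vehicle replicate 2) with 1 library left out. Of 16 genes of serine synthesis and folate metabolism, 6 rose and 4 fell (median 0.16). The enzymes of serine synthesis *Psat1* (179 to 252 CPM, log2 change 0.50, adjusted p = 0.00493) and *Psph* (log2 change 0.86, adjusted p = 0.000726) rose, as did the mitochondrial folate enzymes *Shmt2* (log2 change 0.53, adjusted p = 0.00203), *Mthfd2* (113 to 187 CPM, log2 change 0.73, adjusted p = 6.48e-05) and *Aldh1l2* (0.681, 0.557, 0.717 and 1.39 CPM with vehicle, 4.98, 7.22, 8.06 and 8.57 at 50 µM). *Phgdh*, the first enzyme of serine synthesis, was at 214 and 218 CPM and did not pass. Among those that fell were *Shmt1* (-0.49), the cytosolic counterpart of *Shmt2*, and *Tyms* (-0.40) and *Gart* (-0.30), which use folate to make nucleotides, with adjusted p between 0.0132 and 0.0253.

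Aminoacyl-tRNA synthetases charge tRNAs with amino acids in the cytosol and in mitochondria. Of 20 cytosolic aminoacyl-tRNA synthetases, 7 rose and none fell (median 0.13), and of 17 mitochondrial ones 1 rose and none fell (median 0.02). The cytosolic ones were *Sars* (0.53), *Wars* (0.48), *Cars* (0.48), *Gars* (0.42), *Aars* (0.39), *Mars* (0.29) and *Yars* (0.27), and the mitochondrial one was *Hars2* (0.31, adjusted p = 0.0496), which kept its call in 1 of the 8 leave-one-out fits. Of 23 amino acid transporters, 5 rose and 4 fell (median -0.05). Besides *Slc7a3*, the glycine transporter *Slc6a9* (1.38 to 4.63 CPM, log2 change 1.74, adjusted p = 0.000231) and the neutral amino acid transporters *Slc1a4* (5.64 to 13.2 CPM, log2 change 1.24, adjusted p = 4.93e-05) and *Slc1a5* (log2 change 0.40, adjusted p = 0.00634) rose, with *Slc3a2*, the heavy chain of several transporters (log2 change 0.31, adjusted p = 0.00670). *Slc38a2* (-0.35), *Slc43a2* (-0.34), *Slc36a1* (-0.32) and the lysosomal exporter *Pqlc2* (-0.42) fell. The number that fell was between 2 and 5 (without 50 µM replicate 1 or vehicle replicate 4) when 1 library was left out, and 7 with DESeq2 or with all 12 libraries in the fit, when 5 rose. The cystine transporter *Slc7a11* was at 224 and 205 CPM and did not pass.

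Promoters of the genes called higher in these 5 lists were searched for TGATGNAA, the 8-letter core of the composite element to which ATF4 binds, on both strands, in windows from 250 bases before to 50 bases after the start site (RefSeq, GRCm38.p6). The lists hold known ATF4 targets, so a match is a description and not independent of the choice. A window was found for 29 of the 37 genes that rose, and 12 (41.4%) held the element. It was in 5 of 32 members that were not called (15.6%), in none of 9 that fell, and in 285 of all 10316 tested genes with a window (2.76%). The windows of *Asns* and *Chac1* are shown because these genes were among the clearest rises of the lists, and that of *Pycr1* because its element is on the same strand as that of *Asns*. Capitals mark the element, each window is read 5′ to 3′ on the strand of the gene, and the element of *Chac1* lies on the opposite strand, so its letters appear as their reverse complement.
Asns (chr6:7693160-7693459, minus strand): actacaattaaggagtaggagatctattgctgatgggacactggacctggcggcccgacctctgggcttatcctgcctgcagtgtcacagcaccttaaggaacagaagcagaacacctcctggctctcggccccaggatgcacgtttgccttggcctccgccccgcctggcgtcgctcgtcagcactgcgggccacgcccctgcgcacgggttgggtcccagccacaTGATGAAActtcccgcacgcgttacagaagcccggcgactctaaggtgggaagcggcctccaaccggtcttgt
Chac1 (chr2:119350992-119351291, plus strand): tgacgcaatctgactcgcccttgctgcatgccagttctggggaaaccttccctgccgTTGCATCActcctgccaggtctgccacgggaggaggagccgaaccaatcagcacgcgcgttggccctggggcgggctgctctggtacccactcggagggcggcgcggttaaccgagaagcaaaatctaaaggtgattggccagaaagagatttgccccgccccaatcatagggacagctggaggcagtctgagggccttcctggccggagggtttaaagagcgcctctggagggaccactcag
Pycr1 (chr11:120643699-120643998, minus strand): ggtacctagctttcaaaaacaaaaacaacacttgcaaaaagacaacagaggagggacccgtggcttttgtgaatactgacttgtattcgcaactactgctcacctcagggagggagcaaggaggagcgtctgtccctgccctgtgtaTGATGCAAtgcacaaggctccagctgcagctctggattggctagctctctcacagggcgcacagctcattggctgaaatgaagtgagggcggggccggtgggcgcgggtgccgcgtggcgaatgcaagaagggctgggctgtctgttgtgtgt
The element began at position -23 from the start site in *Asns*, -193 in *Chac1* and -103 in *Pycr1*. *Aars* held it 2 times, and *Atf3*, *Gars*, *Got1*, *Nupr1*, *Slc1a4*, *Trib3*, *Vldlr* and *Yars* held it 1 time each.

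**Figure D3:**
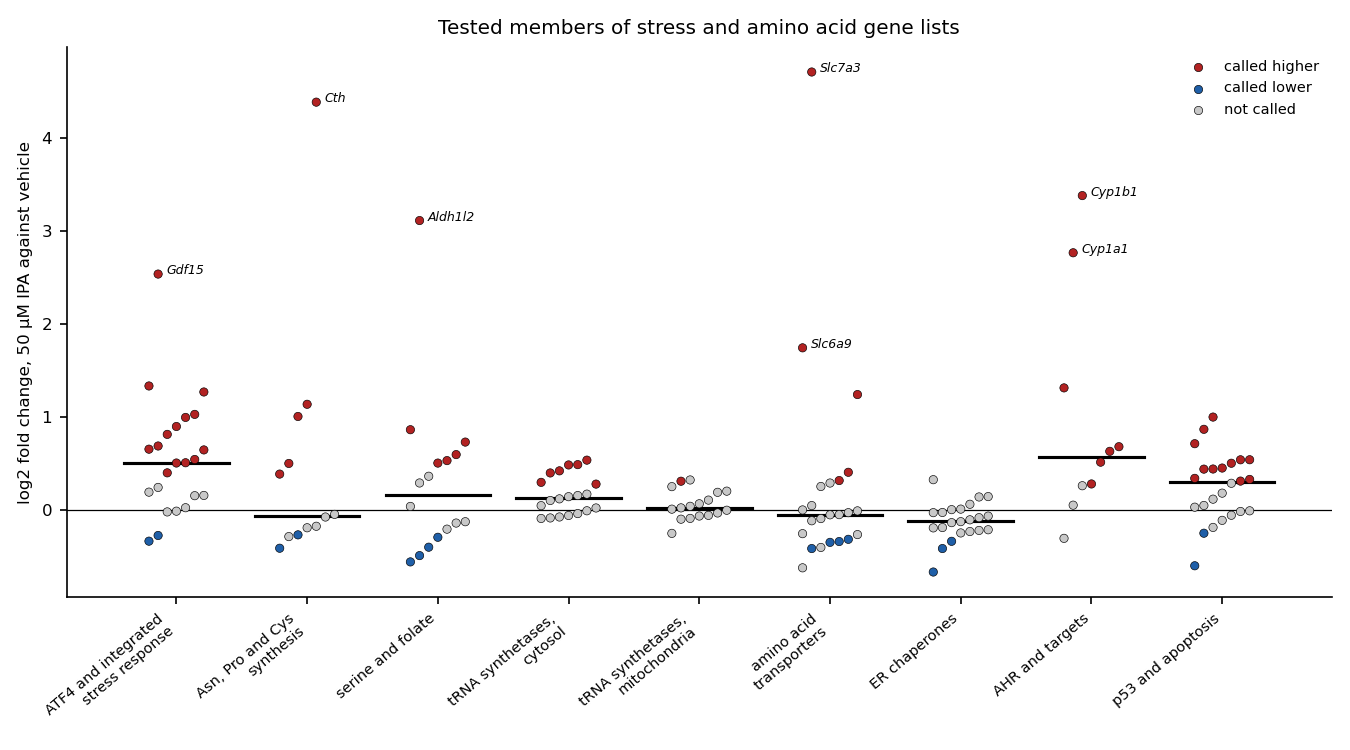
Log2 fold change at 50 µM IPA against vehicle (vertical axis) of each tested member of 9 gene lists (points), with the list's median (line). Red and blue mark members called higher and lower, and grey those not called. ATF4, AHR and p53 lists have medians of 0.50, 0.57 and 0.30, and 3 members of the list of endoplasmic reticulum chaperones and misfolding response are called lower.

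Chaperones of the endoplasmic reticulum are induced when proteins misfold there. Of 22 tested genes of these chaperones and the wider response to misfolded proteins, none rose and 3 fell (median -0.12). They were *Dnajb9* (47.6 to 29.7 CPM, log2 change -0.67, adjusted p = 0.000483), *Dnajc3* (209.6 to 156 CPM, log2 change -0.42, adjusted p = 0.000920) and *Syvn1* (-0.34). The most abundant members, *Calr* and *Hspa5*, were at 1964 and 1522 CPM with vehicle and 1659.7 and 1403 at 50 µM, and neither passed (adjusted p = 0.0643 and 0.405). *Calr* passed with DESeq2, with all 12 libraries in the fit and with an offset for exon length. The number that fell was between 2 (without 50 µM replicate 4) and 6 (without 50 µM replicate 1) with 1 library left out. With DESeq2, as with all 12 libraries, 1 member rose and 7 fell, and with the offset for exon length 1 rose and 5 fell.

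More p53 target and apoptosis genes rose than fell, and the viability of the cells was not analysed here. Of 24 tested, 12 rose and 2 fell (median 0.30), and between 8 (without vehicle replicate 1) and 12 (without 50 µM replicate 1 or vehicle replicate 4) rose with 1 library left out. *Plk2* (34.8 to 69.0 CPM, log2 change 1.00, adjusted p = 0.000168), *Pmaip1*, which encodes the BH3 protein NOXA (52.9 to 86.0 CPM, log2 change 0.71, adjusted p = 9.76e-05), the cell cycle inhibitor *Cdkn1a* (356 to 479 CPM, log2 change 0.44, adjusted p = 0.00180) and *Mdm2* (log2 change 0.44, adjusted p = 0.00165), which degrades p53, rose. So did *Bcl2* (18.7 to 33.9 CPM, log2 change 0.86, adjusted p = 7.76e-05), which blocks apoptosis. *Trp53* itself fell (log2 change -0.25, adjusted p = 0.0372), a call lost in 5 of the 8 leave-one-out fits, as did *Bcl2l11*, which encodes the BH3 protein BIM (79.7 to 52.1 CPM, log2 change -0.60, adjusted p = 0.000140). Other rises were those of *Zmat3*, *Phlda3*, *Tnfrsf10b*, *Bbc3*, *Trp53inp1* and *Ccng1*, between 0.33 and 0.54, of which *Bbc3* and *Phlda3* lost their call in 7 and 5 of the 8 leave-one-out fits.

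Most of AHR and its targets were higher. Of 10 tested members, 7 rose and none fell (median 0.57), against a median of -0.01 for 10 µM against vehicle. *Cyp1b1* (ENSMUSG00000024087, chromosome 17, 79701537 to 79715061), a monooxygenase and standard AHR target, was at 15.9, 12.1, 10.0 and 9.94 CPM with vehicle, 14.9, 16.7, 9.22 and 9.66 at 10 µM and 125, 152, 114 and 105 at 50 µM. The 50 µM libraries lay above both other groups, which overlapped (50 µM against vehicle, log2 change 3.38, SE 0.16, adjusted p = 7.42e-08; against 10 µM, adjusted p = 7.21e-09). *Cyp1a1* was at 0.189, 0.111, 0 and 0.159 CPM with vehicle and 0.586, 1.06, 1.36 and 0.294 at 50 µM (adjusted p = 0.0177), too few reads for a fold change to be given. *Serpinb2*, a protease inhibitor, rose from 199.6, 189, 179 and 186 CPM to 429, 451, 555 and 423 CPM (log2 change 1.31, SE 0.09, adjusted p = 2.22e-06), and it overlaps *Serpinb10* on the same strand, which also rose (0.76). *Nqo1* (23.7 to 37.7 CPM, log2 change 0.68, adjusted p = 0.00141), *Tiparp* (71.9 to 111 CPM, log2 change 0.63, adjusted p = 0.000168), the AHR repressor *Ahrr* (73.9, 66.3, 52.9 and 51.6 CPM with vehicle, 80.0, 90.4, 91.0 and 85.3 at 50 µM, log2 change 0.51, adjusted p = 0.00770) and *Ahr* (log2 change 0.28, adjusted p = 0.0458) rose less. *Ahr* lost its call in 7 of the 8 leave-one-out fits. The partner *Arnt* was at 75.1 and 77.3 CPM and did not pass. The AHR element TNGCGTG, on either strand, was in the promoter window of 1 of 6 members that rose (*Ahrr*) and in 9.14% of all windows.

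Antioxidant and iron genes were mixed. Of 22 NRF2 targets and antioxidant genes, 5 rose and 2 fell (median 0.06). *Osgin1* (log2 change 0.76, adjusted p = 0.000175), *Blvrb* (45.5 to 75.0 CPM, log2 change 0.73, adjusted p = 0.00171), *Prdx1* (757 to 1085 CPM, log2 change 0.53, adjusted p = 0.00764) and *Cat* (0.33) rose besides *Nqo1*, while *Nfe2l2*, which encodes NRF2, fell (log2 change -0.30, adjusted p = 0.00883), with *G6pdx* (-0.31). Of 16 genes of iron handling, 3 rose and 3 fell (median 0.01). The ferritin chains *Fth1* (5415 to 6989.7 CPM, log2 change 0.38, adjusted p = 0.0132) and *Ftl1* (log2 change 0.38, adjusted p = 0.0142), which store iron, and ceruloplasmin, *Cp* (2.55 to 8.36 CPM, log2 change 1.72, adjusted p = 1.05e-05), rose. The transferrin receptor *Tfrc* (334 to 221 CPM, log2 change -0.59, adjusted p = 0.000519), the exporter *Slc40a1* (-0.52) and the reductase *Steap3* (-0.65) fell.

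Alternative activation is the state macrophages take under IL-4 and IL-13. Of 16 of its genes tested, 9 rose and 2 fell (median 0.64). Besides *Retnla* and *Ccl24*, *Alox15*, a lipoxygenase (10.2 to 24.8 CPM, log2 change 1.29, adjusted p = 0.000253), *Clec10a*, a lectin (20.4 to 36.7 CPM, log2 change 0.86, adjusted p = 0.000873), *Egr2* (log2 change 0.63, adjusted p = 0.000830) and *Il33* (1.09 to 2.19 CPM, log2 change 1.01, adjusted p = 0.0329) rose as well, the last in 1 of the 8 leave-one-out fits. *Mrc1*, the mannose receptor, fell from 136, 133, 189 and 154 CPM to 112, 88.1, 80.6 and 95.3 CPM (log2 change -0.69, SE 0.12, adjusted p = 0.00232), and its 10 µM mean was 235 CPM (adjusted p = 1.96e-07 for 50 µM against 10 µM). *Il4ra*, the receptor chain for IL-4, fell slightly (log2 change -0.23, adjusted p = 0.0277). *Chil3*, the most abundant member, was at 5971 and 5258 CPM and did not pass (adjusted p = 0.170), although it did with an offset for exon length and in 1 of the 8 leave-one-out fits.

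Of 24 chemokine ligands tested out of 41 listed, 16 rose and 2 fell (median 0.69), and between 15 and 16 rose with any 1 library left out. Their summed level was 4631 to 5335 CPM in the vehicle libraries and 8095 to 9833 CPM at 50 µM, without overlap. *Ccl6* was the most abundant, at 2697, 2426, 2785 and 3212 CPM with vehicle and 4833, 4564, 5719 and 4780.2 at 50 µM (log2 change 0.85, SE 0.10, adjusted p = 0.000110). *Ccl9*, of the same gene cluster and likewise a CCR1 ligand, was at 692, 619.8, 742 and 774 CPM and 1351, 1412, 1708 and 1234 CPM (log2 change 1.02, SE 0.10, adjusted p = 4.07e-05). Both were separated between the groups. The CCR2 ligands *Ccl2* (44.3 to 107 CPM, log2 change 1.28, adjusted p = 1.66e-05) and *Ccl7* (5.62 to 15.2 CPM, log2 change 1.44, adjusted p = 0.00102), the CCR4 ligands *Ccl22* (471 to 850.5 CPM, log2 change 0.86, adjusted p = 0.000261) and *Ccl17* (239 to 374 CPM, log2 change 0.66, adjusted p = 0.00192), and *Ccl3* (log2 change 0.67, adjusted p = 0.000200), *Ccl4* (log2 change 0.58, adjusted p = 0.0114) and *Ccl5* (log2 change 0.70, adjusted p = 0.00243) rose. Among CXC and other ligands, *Cxcl3* (0.62), *Cxcl5* (1.01), *Cxcl14* (1.48), *Cx3cl1* (0.75), *Ppbp* (0.66) and *Pf4* (0.43) rose. *Ccl8* (2.59 to 0.722 CPM, log2 change -1.85, adjusted p = 0.0370) and *Cxcl16* (log2 change -0.40, adjusted p = 0.0111) fell, but *Ccl8* lost its call in 4 of the 8 leave-one-out fits and with limma-voom. Of 17 receptors, 2 rose and 4 fell (median -0.01). The receptors that fell were *Ccr2*, *Cx3cr1* (8.87 to 4.04 CPM, log2 change -1.13, adjusted p = 0.000296), *Cxcr2* (131 to 75.4 CPM, log2 change -0.79, adjusted p = 0.000605) and *Cxcr4* (-0.38), and those that rose were the eotaxin receptor *Ccr3* (0.742 to 2.25 CPM, log2 change 1.61, adjusted p = 0.00412) and *Ccr7* (68.4 to 90.1 CPM, log2 change 0.41, adjusted p = 0.0135).

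Most genes of neutrophil granules were lower. Primary granules form at the promyelocyte stage and secondary granules later. Of 8 primary granule and progenitor genes, 7 fell and none rose (median -0.74), and between 4 (without 50 µM replicate 2 or vehicle replicate 3) and 7 fell with 1 library left out. Myeloperoxidase, *Mpo*, was at 543, 517, 694 and 734 CPM with vehicle and 339.6, 241, 262 and 379 at 50 µM (log2 change -1.02, SE 0.15, adjusted p = 0.000622). Neutrophil elastase, *Elane*, was at 273, 278, 379.7 and 440.2 CPM and 160.0, 105, 121 and 172 CPM (log2 change -1.29, SE 0.17, adjusted p = 0.000355). *Ms4a3*, a marker of granulocyte and monocyte progenitors, was at 279, 273, 306 and 372 CPM and 154, 119, 152 and 131 CPM (log2 change -1.14, SE 0.11, adjusted p = 3.32e-05). In each of these genes the groups were separated, and vehicle replicate 4 was the highest library (*Mpo* lies opposite Gm11505). *Prtn3* (-0.95), *Gfi1* (-0.53), *Ctsg* (-0.44) and *Cebpe* (-0.31) fell too.

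Of 10 secondary granule genes, 7 fell and none rose (median -0.45). Lactoferrin, *Ltf*, was at 3622, 3693, 4169.8 and 4315 CPM with vehicle and 2640.2, 2118, 2357 and 2689 at 50 µM (log2 change -0.68, SE 0.09, adjusted p = 0.000335). *Ngp* (5509 to 3883 CPM, log2 change -0.50, adjusted p = 0.00960), *Cd177* (1183 to 691 CPM, log2 change -0.77, adjusted p = 0.000160), *Camp* (401 to 261 CPM, log2 change -0.61, adjusted p = 0.00593) and *Fcnb* (68.5 to 20.9 CPM, log2 change -1.71, adjusted p = 1.81e-05) fell, with *Itgb2l* (-0.40) and *Cybb* (-0.36), a subunit of the NADPH oxidase. *Lcn2* was at 2432 and 2130.2 CPM and did not pass (adjusted p = 0.221). Of 10 genes of mature neutrophils, 1 rose and 3 fell (median -0.30), and between 1 and 6 (without 50 µM replicate 3) fell with 1 library left out and 6 with an offset for exon length or with no filter. The calprotectin gene *S100a9* was at 6664, 6815, 8843 and 10027 CPM with vehicle and 5654, 5138, 7805 and 6296 at 50 µM, and *S100a8* at 4629 and 3563 CPM on average. In both the groups overlapped and neither passed (adjusted p = 0.113 and 0.114), although both did with an offset for exon length and with no filter on low counts. The receptors *Csf3r* (-0.36) and *Il1r2* (-0.34) fell besides *Cxcr2*, and the protease *Mmp9* rose (575 to 719.7 CPM, log2 change 0.33, adjusted p = 0.0109).

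All 8 tested genes of the stefin A cluster, inhibitors of cysteine proteases, fell (median -1.41), also with any 1 library left out. They are near-identical paralogs on chromosome 16, so reads may be split between them, and the list was chosen with earlier results of these data known. *BC100530* was at 405, 445, 364 and 371 CPM with vehicle, 230.4, 171, 199 and 209 at 10 µM and 127, 96.0, 123 and 131 at 50 µM (log2 change -1.73, SE 0.10, adjusted p = 6.57e-07). *Stfa1* was at 226, 195, 178 and 196 CPM with vehicle, 110.4, 82.9, 82.8 and 90.1 at 10 µM and 69.5, 46.6, 57.5 and 68.0 at 50 µM (log2 change -1.71, SE 0.12, adjusted p = 2.35e-06). In both genes the 3 groups did not overlap, and 50 µM was below 10 µM (adjusted p = 9.74e-05 and 0.00285). *Stfa2* (-0.92) and *Stfa2l1* (-0.65) fell against vehicle but did not differ from 10 µM by the test (adjusted p = 0.967 and 0.969). *BC117090* (-1.75), *Gm5416*, *Stfa3* (-1.10) and *Gm5483* (545 to 336 CPM, -0.69) completed the cluster.

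**Figure D4:**
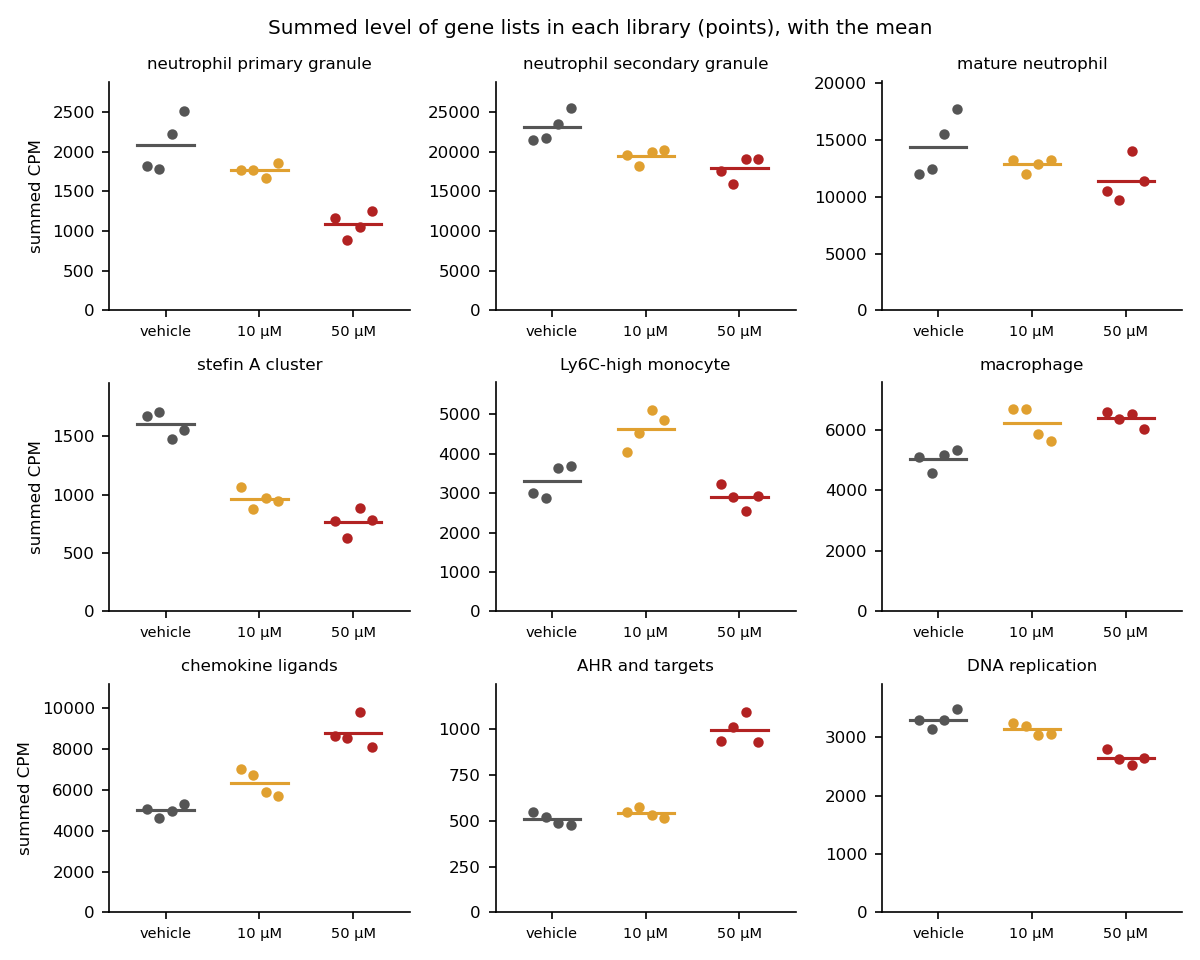
Summed CPM of the tested members of 9 gene lists in each library (points), with the group mean (line), for vehicle, 10 µM IPA and 50 µM IPA; each axis starts at 0. Primary granule, stefin A and DNA replication genes are lowest at 50 µM and chemokine ligands and AHR targets highest, each without overlap with vehicle, while mature neutrophil genes overlap.

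Of 8 genes of Ly6C-high monocytes, 4 fell and none rose (median -0.56; at 10 µM against vehicle, 0.11). *Ccr2* (ENSMUSG00000049103, chromosome 9, 124101950 to 124113557), the receptor by which these cells leave the marrow, was at 277, 296, 385 and 429.9 CPM with vehicle, 487, 507, 527 and 499.9 at 10 µM and 225, 189, 204 and 198 at 50 µM (50 µM against vehicle, log2 change -0.76, SE 0.13, adjusted p = 0.00153; against 10 µM, adjusted p = 7.21e-09). The 3 groups did not overlap, with 10 µM highest and 50 µM lowest. *Vcan*, the proteoglycan versican, was at 389, 392, 418 and 373 CPM with vehicle and 289, 248, 187 and 209 at 50 µM (log2 change -0.74, SE 0.11, adjusted p = 0.000818), and *Plac8* fell from 214 to 108 CPM (log2 change -0.98, adjusted p = 0.000458) besides *F13a1*. *Ly6c2* was at 507, 478, 642 and 696 CPM with vehicle and 489, 362, 462 and 469 at 50 µM, with 1 treated library inside the vehicle range, and did not pass (log2 change -0.38, adjusted p = 0.0658), although it did with DESeq2, with all 12 libraries in the fit, with an offset for exon length and with no filter on low counts. *Fn1* was at 1451 and 1696 CPM (adjusted p = 0.174).

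Macrophage markers moved in both directions. Of 20 tested, 4 rose and 5 fell (median 0.09), and between 2 and 5 (without vehicle replicate 4) rose with 1 library left out. Their summed level was 4564 to 5326 CPM with vehicle and 6020.3 to 6597 CPM at 50 µM, without overlap. *Gpnmb*, a transmembrane glycoprotein of lipid-laden macrophages, was at 845, 676, 879.7 and 751 CPM with vehicle and 1801, 1752, 1631 and 1647 at 50 µM (log2 change 1.12, SE 0.09, adjusted p = 4.39e-06). *Adgre1*, which encodes F4/80 (203 to 324 CPM, log2 change 0.68, adjusted p = 7.48e-05) and *Lgals3* (log2 change 0.32, adjusted p = 0.0338) also rose. *Apoe* (19.3 to 7.42 CPM, log2 change -1.37, adjusted p = 0.00339), *Cd163* (2.99 to 1.25 CPM, log2 change -1.25, adjusted p = 0.00371), *Fcgr1* (116 to 80.2 CPM, log2 change -0.52, adjusted p = 0.00625), *Csf1r*, the receptor for M-CSF (939 to 739 CPM, log2 change -0.34, adjusted p = 0.00769), and *Cx3cr1* fell. *Cd68* was at 235 and 283 CPM and did not pass (adjusted p = 0.0674), although its groups did not overlap. It passed with DESeq2, with all 12 libraries, with the offset for exon length and with no filter.

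Receptors for dying cells, antibody and complement were measured with the enzymes that digest what is taken up. Of 20 scavenger and efferocytosis receptors, 3 rose, namely *Olr1* (42.4 to 65.6 CPM, log2 change 0.64, adjusted p = 0.000165), *Axl* (log2 change 0.38, adjusted p = 0.00388) and *Stab1* (log2 change 0.38, adjusted p = 0.0326), and 3 fell, *Mrc1*, *Cd163* and *Scarb1* (-0.25; list median -0.01). Of 7 Fc gamma receptor genes and adaptors, none rose and 2 fell, *Fcgr1* and *Syk* (-0.27; median 0.07). Of 14 complement genes, *C1ra* (0.50) and *Itgam* (452 to 555 CPM, log2 change 0.31, adjusted p = 0.00893) rose and *C3* (2326 to 1873 CPM, log2 change -0.30, adjusted p = 0.0322) and *C5ar2* (-0.47) fell (median 0.01). Of 22 lysosomal genes, *Glb1* (0.51), *Gaa* (0.40) and *Lamp1* (0.24) rose and none fell (median 0.09), and between 1 (without 50 µM replicate 4 or vehicle replicate 3) and 7 (without vehicle replicate 4) rose with 1 library left out. Of 14 cathepsins, *Ctsl* (379.7 to 853 CPM, log2 change 1.17, SE 0.11, adjusted p = 1.54e-05) and *Ctsd* (859 to 1132 CPM, log2 change 0.41, adjusted p = 0.00720) rose and *Ctsc* (-0.47) and *Ctsg* fell (median -0.02). Of 10 osteoclast genes, *Atp6v0d2* (50.9 to 78.0 CPM, log2 change 0.62, adjusted p = 0.00202), *Acp5* (15.3 to 24.8 CPM, log2 change 0.71, adjusted p = 0.00214), *Ocstamp* (0.84) and *Mmp9* rose and *Dcstamp* fell (-0.39; median 0.09). Apart from the lysosomal genes, each of the counts in this group of lists moved by at most 2 with 1 library left out.

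Of 20 genes linked to immunosuppression by myeloid cells, 4 rose and 8 fell (median -0.27), and between 5 (without 50 µM replicate 4) and 10 (without 50 µM replicate 3) fell with 1 library left out. *Olr1*, *Cd84* (155 to 205 CPM, log2 change 0.41, adjusted p = 0.00419) and *Cd274*, which encodes PD-L1 (140.1 to 194 CPM, log2 change 0.48, adjusted p = 0.00655), rose. *Nos2*, *Ptgs2*, the inducible cyclooxygenase (11.7 to 5.42 CPM, log2 change -1.10, adjusted p = 0.000217), *Il1b* (262 to 142 CPM, log2 change -0.87, adjusted p = 0.000448), *Clec4e* (-0.36), *Cybb*, *Stat3* (259 to 204 CPM, log2 change -0.34, adjusted p = 0.0173), *Trem1* (-0.32) and *Il4ra* fell. Of 16 cytokine and inflammasome genes, *Il1rn*, the IL-1 receptor antagonist (548 to 772 CPM, log2 change 0.50, adjusted p = 0.000882), and *Pycard* (0.63) rose and *Il1b* fell (median 0.16), and between 2 and 5 (without vehicle replicate 2) rose with 1 library left out and 4 with no filter. Of 24 interferon-stimulated genes, 6 rose and 1 fell (median -0.09), and between 2 and 6 (without vehicle replicate 4) rose with 1 library left out. *Usp18* (log2 change 0.87, adjusted p = 0.00286) and *Ifitm3* (478 to 625 CPM, log2 change 0.40, adjusted p = 0.00923) rose, and *Ifit2* fell (log2 change -0.70, adjusted p = 0.00618).

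GM-CSF and IL-6, the cytokines in the medium, signal through JAK kinases and STAT factors. Of 18 genes of GM-CSF and IL-6 signalling, its feedback and related receptors, 4 rose and 5 fell (median 0.07). Between 1 (without 50 µM replicate 2) and 5 (without vehicle replicate 4) rose with 1 library left out. *Csf2rb*, the common beta chain of the GM-CSF receptor (2950.1 to 3709.8 CPM, log2 change 0.34, adjusted p = 0.0222), *Jak2* (log2 change 0.30, adjusted p = 0.0154), *Pim1* (0.25) and *Socs2* (72.6 to 124 CPM, log2 change 0.78, adjusted p = 4.50e-05) rose. The IL-6 receptor *Il6ra* (91.2 to 55.4 CPM, log2 change -0.71, adjusted p = 0.000108), *Stat3* and its feedback inhibitor *Socs3* (163 to 104 CPM, log2 change -0.64, adjusted p = 0.000103) fell, with *Csf1r* and *Csf3r*, which are receptors for other cytokines. *Il6st*, the shared signalling chain, was at 109.6 and 99.7 CPM and did not pass.

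MHC class II presents antigen to helper T cells and class I to cytotoxic T cells. Of 11 MHC class II genes, none rose and 3 fell, *H2-Ab1* (647 to 476 CPM, log2 change -0.44, adjusted p = 0.0114), *H2-Aa* (log2 change -0.35, adjusted p = 0.0358) and *H2-Eb1* (log2 change -0.31, adjusted p = 0.0407; list median -0.03), and between 1 and 4 (without vehicle replicate 4) fell with 1 library left out. *H2-Aa* and *H2-Eb1* each lost their call in 5 of the 8 leave-one-out fits. Of 17 MHC class I and peptide loading genes, 4 rose and none fell (median 0.10), between 2 and 8 (without vehicle replicate 4) rose with 1 library left out, and 5 rose and 1 fell with DESeq2 or with all 12 libraries. They were the class Ib genes *H2-Q7* (6.71 to 16.3 CPM, log2 change 1.28, adjusted p = 0.00169), *H2-Q6* (10.2 to 21.5 CPM, log2 change 1.08, adjusted p = 0.000189), *H2-T22* (0.37) and *H2-T23* (0.33), which are near-identical to other members of the family, so their reads may be split. Of 13 dendritic cell genes, 7 rose and none fell (median 0.38), and between 3 (without vehicle replicate 3) and 7 (without vehicle replicate 2 or vehicle replicate 4) rose with 1 library left out. *Batf3* (6.43 to 14.7 CPM, log2 change 1.20, adjusted p = 3.55e-05), *Cd83* (22.9 to 44.1 CPM, log2 change 0.95, adjusted p = 8.40e-05) and *Irf4* (111 to 158 CPM, log2 change 0.52, adjusted p = 0.000639) led, with *Ccr7*, *Zbtb46* (0.38) and *Cd80* (0.40). *Clec9a* (0.817 to 2.08 CPM, log2 change 1.34, adjusted p = 0.0303) passed as well, a call lost in 4 of the 8 leave-one-out fits. Of 19 checkpoint, costimulatory and inhibitory receptor genes, *Cd200r4* (log2 change 0.62, adjusted p = 0.00278), *Cd274*, *Cd200r1* (log2 change 0.44, adjusted p = 0.00284) and *Cd80* rose and *Cd300a* (-0.39) and *Pirb* (-0.35) fell (median 0.10).

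Cells make cholesterol and fatty acids under the control of SREBP factors. Of 25 genes of sterol and fatty acid synthesis, 11 rose and none fell (median 0.26), and between 7 (without 50 µM replicate 4) and 12 (without vehicle replicate 4) rose with 1 library left out. *Scd1*, stearoyl-CoA desaturase, was at 30.3, 24.4, 31.7 and 41.0 CPM with vehicle and 102, 111, 97.7 and 122 at 50 µM (log2 change 1.77, SE 0.13, adjusted p = 3.78e-06), without overlap. Enzymes along the mevalonate and cholesterol pathway rose less, *Sc5d* (41.1 to 70.4 CPM, log2 change 0.79, adjusted p = 0.000113), *Hmgcs1* (76.0 to 123 CPM, log2 change 0.70, adjusted p = 0.000347) and *Fdft1* (log2 change 0.56, adjusted p = 0.00393), followed by *Mvd*, *Idi1*, *Lss*, *Msmo1* and *Cyp51*, between 0.38 and 0.46. The rise of *Scd2*, a desaturase like *Scd1*, was in the same range. Of 16 genes of PPARG and LXR lipid handling, 3 rose and 5 fell (median -0.03), and 5 rose and 5 fell with DESeq2, with all 12 libraries or with an offset for exon length. Lipoprotein lipase, *Lpl*, was at 1565, 1537, 1663 and 1329 CPM and 2836, 2937, 3017 and 2817 CPM (log2 change 0.94, SE 0.08, adjusted p = 6.59e-06), and *Fabp4* rose from 1.38 to 3.98 CPM (log2 change 1.53, adjusted p = 0.00509) besides *Olr1*. *Pparg* itself (32.6 to 20.2 CPM, log2 change -0.68, adjusted p = 0.00165), the cholesterol exporters *Abca1* (log2 change -0.49, adjusted p = 0.0191) and *Abcg1* (log2 change -0.28, adjusted p = 0.0488), *Angptl4* (-0.69) and *Apoe* fell.

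Of 24 genes of glycolysis and the hypoxia response, 1 rose and 6 fell (median -0.18), and between 1 (without vehicle replicate 3) and 7 (without vehicle replicate 1) fell with 1 library left out. *Hif1a* rose (255 to 376 CPM, log2 change 0.57, adjusted p = 0.000102), while *Egln3* (265 to 129.6 CPM, log2 change -1.03, adjusted p = 0.0172), *Slc16a3* (-0.50), *Slc2a1*, the glucose transporter GLUT1 (361 to 268 CPM, log2 change -0.43, adjusted p = 0.0275), *Pfkfb3* (-0.49), *Pkm* (-0.30) and *Ankrd37* (-0.80) fell. Of 80 nuclear-encoded genes of oxidative phosphorylation, 6 rose and 1 fell (list median 0.13), against 7.00% and 6.50% of all genes, so the share that rose was near the background. The gene that fell was *Ndufa4l2* (0.340, 0.891, 0.896 and 0.676 CPM with vehicle and 0.195, 0.110, 0 and 0 at 50 µM, adjusted p = 0.0157, too few reads for a fold change). Between 3 and 25 (without vehicle replicate 4) rose with 1 library left out. Of 13 mitochondrially encoded genes, *mt-Co2* (log2 change 0.72, adjusted p = 0.0163) and *mt-Nd3* (log2 change 0.67, adjusted p = 0.0111) rose and none fell (median 0.21), with a summed level of 6370.4 to 12006 CPM with vehicle and 8999 to 11555 at 50 µM. Of 86 cytosolic ribosomal protein genes, 3 rose and none fell (median 0.22), against 7.00% of all genes. The number was 10 with DESeq2 or with an offset for exon length, 19 with no filter, between 1 and 61 (without vehicle replicate 4) with 1 library left out, and 48 without both libraries whose slope on exon length was below 0, so it depends on vehicle replicate 4.

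Many genes of DNA replication were lower. Of 27 genes of replication and nucleotide synthesis, 13 fell and none rose (median -0.34), and between 12 and 14 fell with 1 library left out. All 6 subunits of the MCM helicase, which unwinds DNA at replication origins, fell. *Mcm5* was at 286, 259, 277 and 288 CPM with vehicle and 220.5, 196, 189 and 193 at 50 µM (log2 change -0.47, SE 0.07, adjusted p = 0.00101), without overlap, and *Mcm6*, *Mcm3*, *Mcm4*, *Mcm2* and *Mcm7* fell by between 0.35 and 0.42 on the log2 scale. *Ccne2* (44.9 to 28.1 CPM, log2 change -0.67, adjusted p = 0.00108), *Cdc6* (-0.51) and both subunits of ribonucleotide reductase, *Rrm2* (229 to 169 CPM, log2 change -0.44, adjusted p = 0.000785) and *Rrm1* (341 to 255 CPM, log2 change -0.41, adjusted p = 0.00774), fell as well, with *Lig1*, *Pola1* and *Umps* (-0.35, -0.35 and -0.34). Of 24 genes of mitosis, 9 fell and none rose (median -0.23), and between 6 (without vehicle replicate 3) and 13 (without vehicle replicate 4) fell with 1 library left out. *Cdc20* (89.6 to 65.3 CPM, log2 change -0.45, adjusted p = 0.00196), *Kif20a* (log2 change -0.44, adjusted p = 0.00176) and *Plk1* (106 to 77.7 CPM, log2 change -0.44, adjusted p = 0.00924) fell most. *Mki67*, the proliferation marker Ki-67, was at 635, 959.9, 489 and 201 CPM with vehicle and 557, 610.5, 471 and 585 at 50 µM and did not pass, the vehicle values spanning all those at 50 µM. Of 24 DNA repair genes, *Exo1* (-0.40), *Chek1* (-0.39) and *Xpc* (-0.30) fell and none rose (median -0.17), and between 0 (without vehicle replicate 3) and 6 (without vehicle replicate 4) fell with 1 library left out.

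Of 27 transcription factors of myeloid lineages, 6 rose and 6 fell (median -0.06), and between 3 (without 50 µM replicate 2 or vehicle replicate 3) and 7 (without vehicle replicate 4) fell with 1 library left out. *Irf5* (258 to 377 CPM, log2 change 0.56, adjusted p = 0.000285), *Bhlhe40* (416 to 600.3 CPM, log2 change 0.54, adjusted p = 0.000211), *Irf4*, *Irf8* (0.40) and *Rbpj* (0.39) rose. *Klf4* (35.2 to 23.2 CPM, log2 change -0.59, adjusted p = 0.00203), which promotes monocyte differentiation, *Klf5* (22.6 to 15.5 CPM, log2 change -0.54, adjusted p = 0.00702), *Cebpd* (-0.53), *Gfi1*, *Id1* (-0.48) and *Cebpe* fell. The myeloid master factor *Spi1* was at 476 and 434 CPM and did not pass. Of 18 AP-1 and immediate early genes, *Egr2*, *Egr1* (log2 change 0.44, adjusted p = 0.00777) and *Egr3* (0.41) rose and *Dusp1* fell (-0.25; median 0.04). *Dusp1* lost its call in 6 of the 8 leave-one-out fits, with all 12 libraries in the fit and with no filter on low counts.

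Of 19 genes of matrix turnover, 5 rose and 4 fell (median 0.16). Macrophage elastase, *Mmp12* (3151 to 4464 CPM, log2 change 0.51, adjusted p = 0.000987), the collagenase *Mmp13* (38.3 to 77.4 CPM, log2 change 1.02, adjusted p = 0.0122), *Timp1* (0.56), osteopontin, *Spp1* (1751 to 2697 CPM, log2 change 0.63, adjusted p = 0.0173), and *Mmp9* rose. *Sdc4* (54.7 to 20.2 CPM, log2 change -1.43, adjusted p = 5.67e-05), *Tgfbi* (988 to 584 CPM, log2 change -0.75, adjusted p = 3.94e-05), *Sdc1* (-0.60) and *Mmp14* (-0.28) fell. Of 21 serpins tested, 6 rose, led by *Serpinb6b* (14.5 to 44.5 CPM, log2 change 1.63, adjusted p = 2.50e-07), the collagen chaperone *Serpinh1* (1.32) and *Serpinb2*, and 4 fell, led by *Serpina3f* (-1.63; list median 0.10). *Serpinh1* lost its call in 4 of the 8 leave-one-out fits.

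Markers of other cells that bone marrow holds were measured beside these changes, and their part in them was not tested. Of 9 B cell genes, 7 rose and none fell (median 0.99). Their summed level was 77.9 to 92.0 CPM with vehicle and 116 to 166 CPM at 50 µM, and *Ms4a1*, which encodes CD20, was at 3.75, 3.64, 3.09 and 4.29 CPM and 9.04, 11.0, 8.25 and 7.06 CPM (log2 change 1.27, SE 0.17, adjusted p = 0.000324). *Pax5* (3.19 to 7.87 CPM), *Cd79a* (5.95 to 11.7 CPM), *Cd79b* (6.85 to 13.1 CPM) and the immunoglobulin gene *Ighm* (38.3 to 58.7 CPM) rose, all from low levels. Of 5 tested T cell and NK cell genes none passed (median 0.15, summed level 3.53 to 7.99 CPM and 5.50 to 8.50 CPM), and 7 others, among them Cd3e, were under the CPM filter. Of 8 mast cell and basophil genes, *Gata2* rose (46.1 to 102 CPM, log2 change 1.15, adjusted p = 3.00e-06) and *Kit* fell (45.5 to 33.3 CPM, log2 change -0.44, adjusted p = 0.0101; median 0.12, summed level 429 to 516 CPM and 469 to 577 CPM). Of 9 eosinophil genes, 1 rose, *Ccr3*, and 4 fell, the ribonucleases *Ear1* (42.4 to 22.4 CPM, log2 change -0.91, adjusted p = 0.000539), *Ear6* (-0.86) and *Ear2* (-0.81) and *Prg3* (-0.46; median -0.46, summed level 1181 to 1445 CPM and 900.0 to 1183 CPM). The eosinophil peroxidase *Epx* was at 508 and 438 CPM and did not pass. Of 6 erythroid and megakaryocyte genes, the platelet chemokines *Pf4* and *Ppbp* rose and none fell (median 0.09, summed level 265 to 307 CPM and 338 to 389 CPM). Of 8 stromal and endothelial genes, *Lepr* fell (6.55 to 2.78 CPM, log2 change -1.24, adjusted p = 0.00196) and none rose (median -0.22, summed level 102 to 119 CPM and 99.8 to 116 CPM). Of 9 progenitor genes, *Cd34* (25.1 to 37.2 CPM, log2 change 0.58, adjusted p = 0.000695) and *Gata2* rose and *Myb* (54.3 to 36.1 CPM, log2 change -0.58, adjusted p = 0.00176), *Ly6a* (-0.82) and *Kit* fell (median -0.34, summed level 229.8 to 262 CPM and 243 to 265 CPM).

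Of the 14 genes that the study names for the 10 µM dose, 6 rose and 3 fell at 50 µM (median 0.22), and since the study chose them on these cultures, the count is not independent evidence of a direction. *Flrt2* (13.3 to 28.1 CPM, log2 change 1.09, adjusted p = 0.000539) and *Epsti1* (24.1 to 36.6 CPM, log2 change 0.61, adjusted p = 0.00338) rose besides *Spp1* and *Atp6v0d2*. *Pak1* (83.0 to 51.6 CPM, log2 change -0.68, adjusted p = 7.67e-05), *Ms4a3* and *Klf5* fell. *Ecm1* and *Dusp3* were at 44.3 and 67.0 CPM with vehicle and 48.4 and 74.8 at 50 µM and did not pass (adjusted p = 0.319 and 0.168), as was the case for *Cd68*, *Chil3* and *Lcn2*.

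**Figure D5:**
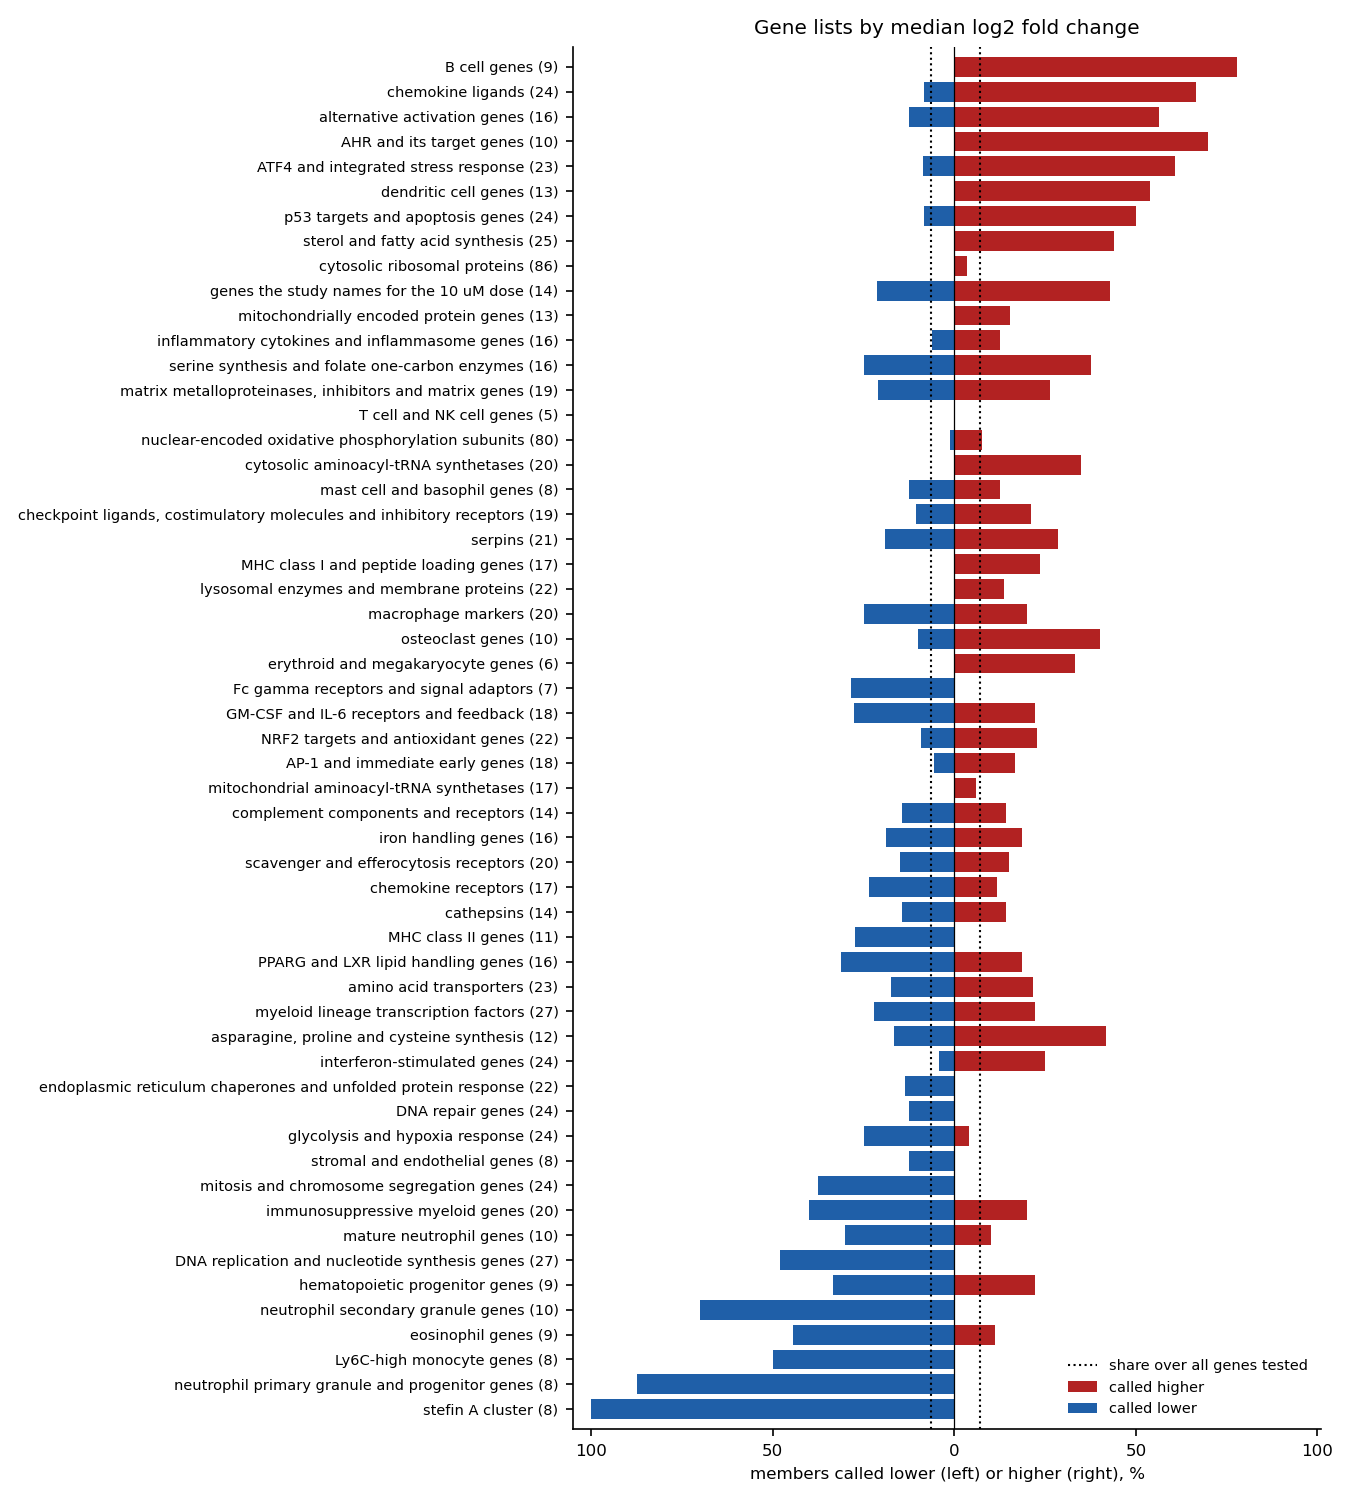
Share of the tested members of each of 55 gene lists that were called lower (blue, left) or higher (red, right) at 50 µM IPA against vehicle, in percent, with the number tested in brackets; lists are ordered by median log2 fold change. Dotted lines mark the shares over all genes tested, 6.50% lower and 7.00% higher. The stefin A cluster and neutrophil primary granule genes lie at the bottom, and B cell genes and chemokine ligands at the top.

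Between the doses, 2289 genes differed by edgeR's test of 50 µM against 10 µM, 1120 higher (7.52%) and 1169 lower (7.85%) at 50 µM. It shares its treated libraries with the comparison against vehicle, so the values are set side by side only. Of the stress response list, 12 of 23 members were higher and 1 lower than at 10 µM, and of the AHR list 7 of 10 were higher and none lower. Of the sterol list 12 of 25 were higher and none lower. Of the macrophage markers 2 were higher and 11 of 20 lower than at 10 µM, where their median against vehicle was 0.30. Of the genes of Ly6C-high monocytes none were higher and 6 of 8 lower, and of the glycolysis and hypoxia genes 2 were higher and 15 of 24 lower. Of the 8 stefin genes 3 were lower than at 10 µM, and of the chemokine ligands 10 of 24 were higher and 2 lower.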

How the data were processed

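RNA from bone marrow cells grown for 5 days with GM-CSF and IL-6, with 0.1% DMSO (4 libraries), 10 µM IPA (4) or 50 µM IPA (4), was sequenced as stranded mRNA libraries. Per the study's methods and the submitters' processing notes, reads were trimmed with Atropos, aligned with HISAT2 2.2.1 to mm10 (GRCm38.p6) and counted per Ensembl gene with featureCounts 2.0.1. The strand setting is not given in the sources used here. The table deposited by the authors holds raw read counts per gene in whole numbers. The study tested 10 µM against vehicle with DESeq2. The processing notes list DESeq2 1.40.2 and R 4.3.0, while the methods give another DESeq2 version.

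Genes above 0.5 CPM in 2 or more of the 12 libraries were kept, and their counts were normalized with TMM factors and tested with edgeR 4.0.16 (quasi-likelihood, R 4.3.3), on the 8 libraries of the 2 groups, with Benjamini-Hochberg adjustment at 0.05 over the 14894 genes, and likewise for 50 µM against 10 µM. All adjusted p-values are from these fits and two-sided. CPM use the library sizes and TMM factors of the 12 libraries. On simulated counts made from the means and library sizes of the 50 µM and vehicle libraries, with 200 of 14894 genes changed 2-fold up or down, the test recovered 158 and made 11 false calls. Most called genes changed by less than 2-fold, and slopes on exon length were not simulated, so these rates need not hold for them. The replicates of each group differed from each other by more than sampling noise. Symbols, positions and overlaps came from a gene annotation of GRCm38, and promoter windows from RefSeq. Alternatives were DESeq2 1.42.0, limma-voom (limma 3.58.1), DESeq2 size factors, other filters, all 12 libraries in the fit, an exon length offset, a replicate block, minimum fold changes and leaving out each library. Leaving out both libraries whose slope on exon length was below 0 was added after seeing the data. Figures were drawn with matplotlib 3.10.9.

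The genes named are the 12 highest and 12 lowest log2 fold changes among called genes that averaged 1 CPM or more over the 8 libraries and had no overlap of the groups, and, in 55 gene lists, called members with the largest changes and the most abundant members. Some members are counted in their lists but not reported here by name. The comparison, the lists and their members were chosen with earlier results of these data known.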

Additional observations from a re-analysis of the deposited data

Results flagged for a closer look

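A library was taken to stand apart when its gap to the nearest of the other 3 in its group passed the 95% limit of Dixon's test, which chance exceeds in about 1 in 20 groups. Of 650 groups of values tested, 26 passed, a smaller share than that. The number of counted reads was lowest in vehicle replicate 3 (22417700, against 25762200 to 26442700 in the others), and the slope of counts on exon length was lowest in 50 µM replicate 3 (-0.0664).

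In the stress and amino acid lists, *Asns* was high in vehicle replicate 4 (80.6 CPM, against 60.8 to 63.3) and *Wars* in vehicle replicate 2 (74.5 CPM). At 50 µM, *Atf5* was low in replicate 3 (56.5 CPM, against 67.7 to 69.2), where *Sars* was high (219 CPM). *Slc3a2* was high (356 CPM) and *Slc6a9* low (3.88 CPM) in 50 µM replicate 2. *Pmaip1* was low in 50 µM replicate 1 (80.6 CPM), *Bcl2* high in replicate 4 (36.3 CPM) and *Tyms* low in replicate 4 (40.6 CPM, against 51.3 to 53.6).

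Among secreted and surface proteins, *Ereg* was low in vehicle replicate 4 (0.914 CPM, against 2.02 to 2.23). *Cx3cl1* (7.02 CPM), *Timp1* (11.8 CPM) and *Ecm1* (39.4 CPM) were low in vehicle replicate 2. *Ccl8* was high in 50 µM replicate 1 (1.47 CPM, against 0.437 to 0.546), *Mmp9* in 50 µM replicate 2 (748 CPM) and *Il1r2* in 50 µM replicate 3 (418 CPM). *H2-Ab1* was low in 50 µM replicate 4 (394 CPM, against 502 to 506), *H2-T22* high in 50 µM replicate 3 (58.5 CPM) and *H2-T23* high in vehicle replicate 4 (87.6 CPM).

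Of the remaining genes, *Klf4* was low in vehicle replicate 4 (31.3 CPM), *Ocstamp* high in vehicle replicate 3 (11.2 CPM), *Pola1* high in vehicle replicate 1 (73.7 CPM), *Prg3* low in 50 µM replicate 1 (17.3 CPM) and *Rrm2* low in 50 µM replicate 2 (163 CPM).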

How the results depend on the processing

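The 2010 genes called at 50 µM against vehicle became 2554 with DESeq2, 2018 with limma-voom, 2450 with all 12 libraries in the fit and 2442 with an exon length offset. Tests against a log2 fold change of at least 0.5 and 1 left 200 and 36 genes. In these tests 232 and 285 of the 304 called genes named lost their call. With 1 library left out, between 1248 (without vehicle replicate 3) and 2689 (without vehicle replicate 4) were called, and without both libraries whose slope on exon length was below 0, 2419, an alternative chosen after seeing the data. For 50 µM against 10 µM, 2289 became 2784 with DESeq2, 1972 with all 12 libraries and 1604 to 2269 with 1 library left out. Of the 304 called genes named, 230 passed in all 8 fits that left out a library. The other 74 lost their call in at least 1, and 48 of them in 4 or more, from 5 without vehicle replicate 4 to 59 without vehicle replicate 3. *Abcg1*, *Ahr*, *Bbc3*, *Hars2*, *Il33*, *Lamp1*, *Prodh* and *Syk* passed in 1 of the 8, *C3*, *Dusp1*, *H2-T23*, *Lgals3*, *Pim1*, *Scarb1*, *Slc36a1*, *Stab1* and *Vldlr* in 2, *Cd80*, *Chek1*, *Gart*, *H2-Aa*, *H2-Eb1*, *Il4ra*, *Mmp14*, *Phlda3*, *Slc16a3*, *Trp53*, *Umps*, *Yars* and *Zbtb46* in 3, and *Abca1*, *Ccl8*, *Clec9a*, *Csf3r*, *Cxcr4*, *Cyp51*, *Eif2ak1*, *Gfi1*, *H2-T22*, *Id1*, *Il1r2*, *Msmo1*, *Pkm*, *Pqlc2*, *Scd2*, *Serpinh1*, *Slc2a1* and *Xpc* in 4. The 12 highest and 12 lowest changes among called genes without overlap between the groups and with a mean of at least 1 CPM passed in all 8. The sign changed only in 2 genes that did not pass. *Mki67* was at a log2 fold change of 0.020 with an exon length offset, 0.17 with limma-voom, 0.15 with the replicate block, 0.04 without 50 µM replicate 3, and 0.01 and 0.33 without vehicle replicates 1 and 2. *Phgdh* was at -0.016 without vehicle replicate 2. With 1 library left out, *Mki67* lay between -0.31 and 0.33 and *Phgdh* between -0.016 and 0.11. A replicate block by the shared numbers gave 1830 called genes against vehicle and 2200 against 10 µM, and of the named genes 15 lost their call, among them *Ccl8*, *Clec9a*, *Dusp1*, *H2-Aa*, *H2-Eb1* and *Trp53*, and 4 gained one, *Cd68*, *Ly6c2*, *S100a8* and *S100a9*. The deviations of same-numbered libraries correlated at 0.0292, 0.142, 0.0186 and -0.000712, and those of other pairs at between -0.173 and 0.0976. Unequal slopes on exon length also enter these deviations, so they cannot show whether the numbers pair the samples. For flow cytometry of such cultures the study used a repeated-measures ANOVA.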

Other observations

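Protein-coding genes made up 94.4% of the called genes and 83.4% of the genes tested. The median exon length was 3803.5 bases for genes called higher, 4808.5 for genes called lower and 3872 for all genes tested, beside the unequal slopes of counts on exon length among the libraries. Mitochondrially encoded genes held 0.674% to 1.28% of the counted reads with vehicle and 0.945% to 1.20% at 50 µM. The biological coefficient of variation within a group was 15.0% with vehicle, 11.1% at 10 µM and 10.3% at 50 µM.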
